A study of Danio rerio with 10 samples.

Results

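The aldh2.1-/- clutches were compared with one another, with the aldh2.1+/+ clutches measured in the same way as reference. The libraries were chosen by the genotype in their labels, which gave 5 aldh2.1-/- libraries of 10 in all, from clutches numbered 1, 2, 3, 5 and 6. RNA was sequenced from whole zebrafish larvae at 120 hours post fertilization (hpf), with 50 larvae pooled per clutch and 1 library per clutch. The aldh2.1-/- larvae carried a frame-shift deletion in aldh2.1, made with CRISPR/Cas9 in the Tg(fli1:EGFP) line, in which a fli1 promoter drives a fluorescent protein in endothelial cells. The study used 1 such deletion line. The aldh2.1+/+ larvae carried the intact gene. Larvae of both genotypes grew in egg water at 28.5 °C with nothing added and were anaesthetized with tricaine before they were frozen. A clutch of either genotype is therefore a pool of siblings, and differences between larvae of a clutch cannot be seen. The labels do not say what a clutch number marks.

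Aldh2 enzymes are mitochondrial aldehyde dehydrogenases that oxidize acetaldehyde and other reactive aldehydes. In whole larvae the RNA of all organs is mixed, so a transcript of 1 organ, such as a crystallin of the lens or a myosin of the trunk muscle, follows the amount of that organ in the pool as well as the activity of the gene in it. In such bulk samples, fewer cells of a type and less RNA per cell cannot be told apart. At this age the swimming muscle, the retina and the lens are growing, the gut has opened, the yolk is nearly used up and the larval globins are the main product of red blood cells.

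Total counts were 19792930 to 20703518 in the aldh2.1-/- libraries and 20192749 to 20435791 in the aldh2.1+/+ libraries, so depth was near equal. Genes listed at 0 numbered 6270 to 6639 in aldh2.1-/- libraries and 6379 to 6629 in aldh2.1+/+ libraries. Of 32520 genes in the tables, 21532 passed a filter on low counts and 16917 of them had a mean of at least 50 normalized counts, that is, counts scaled to a common effective library size. Defining markers of muscle, heart, retina, lens, liver, pancreas, gut, skin, blood and nervous tissue were all measured. No 2 libraries of a genotype agreed within counting noise: the chi-square per degree of freedom was 18.2 to 97.2 over the 10 pairs of aldh2.1-/- libraries and 8.86 to 32.9 over the 10 pairs of aldh2.1+/+ libraries.

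The targeted gene aldh2.1 had 71.2, 149, 55.9, 85.3 and 94.2 normalized counts in aldh2.1-/- clutches 1, 2, 3, 5 and 6, against 208, 222, 254, 209.7 and 208 in the aldh2.1+/+ clutches of the same numbers. Each aldh2.1-/- clutch was below each aldh2.1+/+ clutch, and clutch 2 was the highest of the mutants. The standard deviation (SD) of its log2 CPM, the count scaled to library depth on the log2 scale, was 0.52 in aldh2.1-/- and 0.12 in aldh2.1+/+ clutches. In the test of spread described below its adjusted p was 0.373 by limma, so this difference in spread did not pass. Its paralog aldh2.2 had 31.9, 43.5, 32.2, 37.3 and 44.0 normalized counts in aldh2.1-/- clutches, against 294, 298, 331, 251 and 282 in aldh2.1+/+ clutches. For aldh2.2 the SD was 0.21 in aldh2.1-/- and 0.14 in aldh2.1+/+ clutches. Both genes took part of their reads by estimate, since few of their counts were whole numbers.

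The aldh2.1-/- clutches lay farther apart from each other than the aldh2.1+/+ clutches did. For each gene, the SD of log2 CPM was taken over the 5 clutches of a genotype, and its median over 21532 genes was 0.244 in aldh2.1-/- (quartiles 0.155 and 0.388) and 0.167 in aldh2.1+/+ (quartiles 0.101 and 0.286). The ratio of these medians was 1.46. The SD was larger in aldh2.1-/- clutches for 15476 genes, which is 71.9% of all genes tested. An SD of at least 0.5 was seen for 3097 genes (14.4%) in aldh2.1-/- and 1650 genes (7.66%) in aldh2.1+/+ clutches. The lists overlapped in 890 genes, which is 28.7% of the aldh2.1-/- genes and 53.9% of the aldh2.1+/+ genes. An SD of at least 1 was seen for 312 genes (1.45%) in aldh2.1-/- and 172 genes in aldh2.1+/+ clutches.

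The ratio of the SDs was larger for genes of higher level, while the error from counting falls with level. When genes were divided into 5 bins of equal size by mean log2 CPM, the median SD in the highest bin was 0.158 in aldh2.1-/- and 0.0858 in aldh2.1+/+ clutches, a ratio of 1.84. In the lowest bin it was 0.449 in aldh2.1-/- and 0.375 in aldh2.1+/+ clutches, a ratio of 1.197. The SD expected from counting alone in aldh2.1-/- clutches was 0.0381 in the highest bin and 0.295 in the lowest. The share of genes with the larger SD in aldh2.1-/- clutches was 60.8% in the lowest bin, then 66.5%, 72.8% and 76.2%, and 83.1% in the highest bin.

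**Figure D1:**
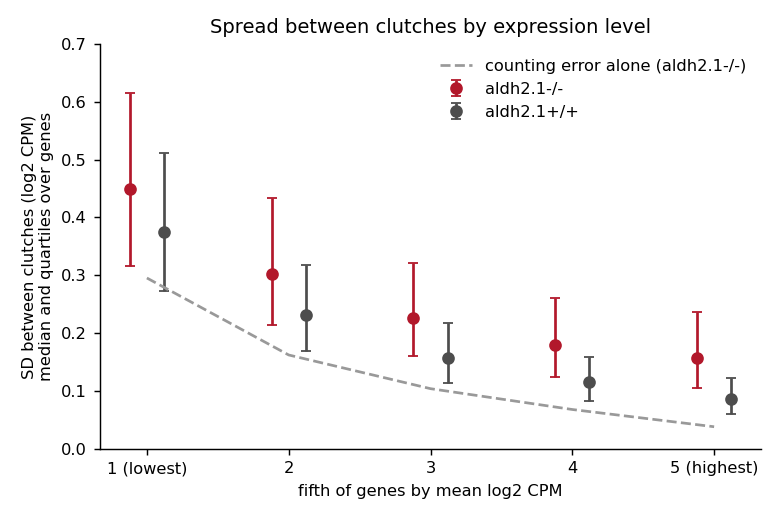
SD between clutches in log2 CPM (vertical axis) for genes divided into 5 bins by mean log2 CPM (horizontal axis), with points at the median and bars from the lower to the upper quartile over genes, for aldh2.1-/- and aldh2.1+/+ clutches. The dashed line is the SD from counting error alone in aldh2.1-/- clutches, and the medians of aldh2.1-/- clutches lie above those of aldh2.1+/+ clutches in every bin, from 0.449 and 0.375 in the lowest to 0.158 and 0.0858 in the highest.

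Each library was also given 1 value, its typical deviation, which is the median over genes of the absolute difference between its log2 CPM and the mean of the other 4 clutches of its genotype. This was 0.272, 0.157, 0.159, 0.237 and 0.208 in aldh2.1-/- clutches 1, 2, 3, 5 and 6, against 0.137, 0.135, 0.140, 0.134 and 0.124 in the aldh2.1+/+ clutches. Each aldh2.1-/- clutch deviated more than any aldh2.1+/+ clutch, and among the mutants clutches 1 and 5 deviated most. The means were 0.207 ± 0.0499 in aldh2.1-/- and 0.134 ± 0.00601 in aldh2.1+/+ clutches (SD, n = 5 each), a difference of 0.0726 with a two-sided exact permutation p of 0.00794, the smallest that 5 against 5 clutches can give. The 5 values of a genotype share the means they are compared with and are not fully independent. On log2(TPM + 1) values the difference was 0.0508 with an exact permutation p of 0.0635, and without aldh2.1+/+ clutch 6 it was 0.0659 with an exact permutation p of 0.0556, so the call was lost there.

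**Figure D2:**
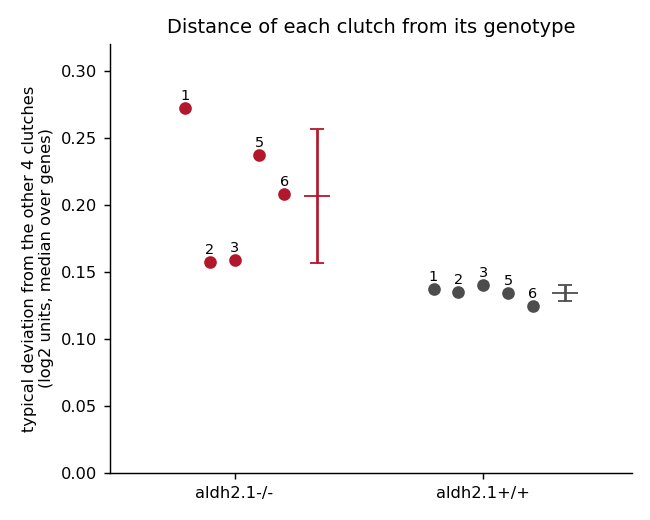
Typical deviation of each clutch from the other 4 clutches of its genotype (vertical axis, log2 units, median over 21532 genes), with aldh2.1-/- left and aldh2.1+/+ right, numbers giving the clutch and bars the mean and SD. The 5 aldh2.1-/- clutches lie between 0.157 and 0.272, all above the aldh2.1+/+ clutches at 0.124 to 0.140.

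The same was seen in pairs of libraries. The median absolute log2 difference between clutches was 0.170 to 0.344 over the 10 aldh2.1-/- pairs and 0.130 to 0.151 over the 10 aldh2.1+/+ pairs. Clutches 5 and 6 were the closest aldh2.1-/- pair and clutches 1 and 5 the most distant. The common biological coefficient of variation, fitted from the counts by edgeR in each genotype alone, was 0.204 in aldh2.1-/- and 0.127 in aldh2.1+/+ clutches. With aldh2.1-/- clutches 1 and 5 left out together, a choice made after seeing the data, the median SD was 0.201 in aldh2.1-/- and 0.170 in aldh2.1+/+ clutches and 59.6% of genes still had the larger SD in aldh2.1-/-.

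Per gene, the spread was tested with limma on absolute deviations from the genotype mean. With Benjamini-Hochberg adjustment over 21532 genes, 0 genes passed an adjusted p of 0.05 (0% of genes tested), and the smallest adjusted p was 0.183. At an unadjusted p under 0.05, 2834 genes (13.2%) had a larger spread and 370 genes (1.72%) a smaller spread in aldh2.1-/- clutches. The count of calls rested on which library was left out. It was 120, 695, 94, 64 and 74 genes without aldh2.1-/- clutch 1, 2, 3, 5 or 6, and 3, 1, 0, 0 and 1 genes without aldh2.1+/+ clutch 1, 2, 3, 5 or 6, and the cause was not tested. No single gene below is therefore given as changed in spread, and genes are described by their values.

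Among single genes the smallest p belonged to LYN, a tyrosine kinase of the Src family, whose adjusted p was 0.183 by limma. It had 67.5, 58.4, 28.4, 28.8 and 32.4 normalized counts in aldh2.1-/- clutches 1, 2, 3, 5 and 6, against 45.4, 45.6, 40.4, 46.6 and 43.9 in aldh2.1+/+ clutches. The aldh2.1-/- values lay on both sides of the narrow aldh2.1+/+ range and did not enter it. GIGYF1, which binds the adaptor GRB10, had 251, 122, 236, 124 and 112 in aldh2.1-/- clutches, against 167, 153, 137, 161 and 169.7 in aldh2.1+/+ clutches. The metalloprotease gene npsn had 182, 118.7, 192, 112 and 117 in aldh2.1-/- clutches, against 153, 149, 143, 153 and 137 in aldh2.1+/+ clutches. For GIGYF1 and npsn, clutches 1 and 3 were above the aldh2.1+/+ range and clutches 2, 5 and 6 below it. In the opposite direction, the serpin gene serpinb1l3 had 784, 846, 769.6, 934 and 799 in aldh2.1-/- clutches, against 1494, 1390.3, 586, 646 and 738 in aldh2.1+/+ clutches. CALN1, a calcium-binding protein, had 54.8, 55.4, 54.9, 43.7 and 48.1 in aldh2.1-/- clutches, against 48.5, 60.5, 22.8, 24.3 and 59.5 in aldh2.1+/+ clutches. For both genes the aldh2.1+/+ clutches were split into a high and a low set, and the aldh2.1-/- clutches were not. None of these genes passed the adjusted threshold. They were named for their small p, which favours a wide range in 1 genotype and a narrow one in the other. The positions of their values follow in part from that choice.

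Much of the variation among aldh2.1-/- clutches followed 1 order of the clutches. In a principal component analysis of the 16917 genes with a mean of at least 50, the leading component held 58.9% of the variance among aldh2.1-/- clutches and 37.1% among aldh2.1+/+ clutches, where 4 equal components would hold 25% each. Scores of the aldh2.1-/- clutches on it were 42.9, 1.65, 14.3, −34.9 and −23.9 for clutches 1, 2, 3, 5 and 6. Clutch 1 was at one end, clutches 5 and 6 were at the other, and clutches 2 and 3 lay between. The share was 47.8% without clutch 1 and 69.1% without clutch 2. Leaving out a clutch removes 1 component, so the share of equal components is above 25% there.

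Genes with an SD of at least 0.5 most often had clutch 1 or clutch 5 as the clutch farthest from the other 4. Clutch 1 was farthest for 1044 of the 3097 genes (33.7%), clutch 5 for 862 (27.8%), clutch 6 for 596 (19.2%), clutch 2 for 340 (11%) and clutch 3 for 255 (8.23%). Over all genes tested these shares were 31.2%, 24.3%, 19.3%, 13.8% and 11.5%, in the same order of clutches. Direction was uneven: clutch 1 was the high clutch for 754 genes and the low one for 290, whereas clutch 5 was the low clutch for 661 and the high one for 201. This held for the genes of large SD and not for all genes tested, where clutch 1 was the high clutch for 3194 and the low one for 3519, and clutch 5 the low clutch for 2727 and the high one for 2505. In aldh2.1+/+ clutches the shares of the 1650 genes were 20.8%, 19.8%, 22.6%, 25.9% and 10.9% for clutches 1, 2, 3, 5 and 6.

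Genes that varied together were grouped by which clutches lay above the genotype mean, among 1296 genes with an SD of at least 0.5 and a mean of at least 50 normalized counts. The largest groups were 329 genes (25.4%) above the mean in clutches 1 and 3 only and 326 genes (25.2%) above it in clutches 1, 2 and 3. Over all 16917 genes with this mean, the same patterns held 1801 genes (10.6%) and 1769 genes. Opposite patterns were rarer among the variable genes, with 98 genes (7.56%) above the mean in clutches 5 and 6 only and 57 genes (4.40%) in clutches 2, 5 and 6. Over all genes with this mean they were not rarer, with 1920 genes (11.3%) and 1904 genes (11.3%). Muscle genes were frequent in the pattern of clutches 1, 2 and 3, with 12 of the 23 variable muscle genes. Photoreceptor genes were frequent in that of clutches 5 and 6, with 8 of 13, and lens genes in that of clutches 2, 5 and 6, with 11 of 15.

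The organs behind these patterns were described with 30 gene lists. For each list, the list level of a clutch is the mean over its genes of log2 CPM, centred on the genotype mean, and a list whose genes move together has a large SD of the level. The SD of the level was larger in aldh2.1-/- clutches for 22 of the 30 lists. Leaving out aldh2.1-/- clutches 1 and 5 together gave 18 of 30. The SD of the individual genes is given beside that over all genes, 0.244 in aldh2.1-/- and 0.167 in aldh2.1+/+ clutches. The share of genes with the larger SD in aldh2.1-/- was 60.8% in the lowest and 83.1% in the highest bin by level. Lists were not matched on level, so its part in the share of a list was not tested. Members named for a list were mainly its 3 of largest and 1 of smallest SD in aldh2.1-/- clutches. Values of the former outside the aldh2.1+/+ range follow in part from that choice.

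**Figure D3:**
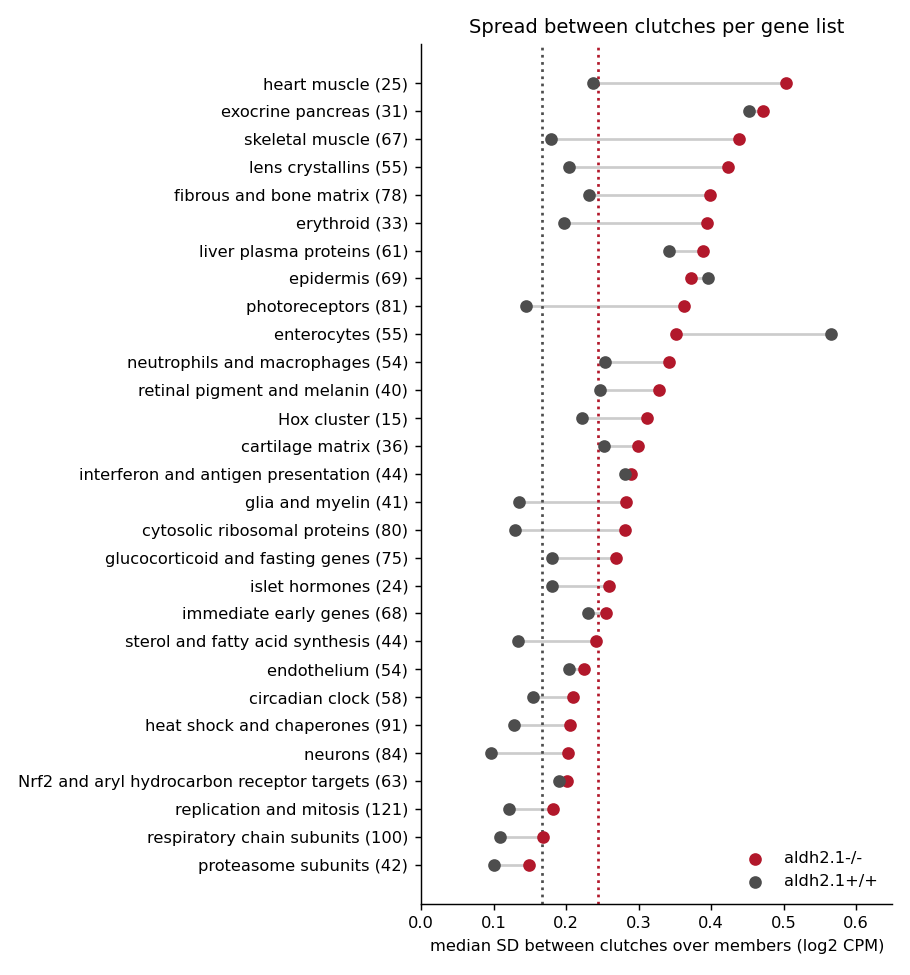
Median SD of log2 CPM between clutches over the genes of each list (horizontal axis), 1 row per list, with a point for aldh2.1-/- and a point for aldh2.1+/+ clutches, and dotted lines at the medians over all genes tested, 0.244 and 0.167. Heart muscle, skeletal muscle, lens and photoreceptor lists lie farthest right of their aldh2.1+/+ points, enterocytes lie left of theirs (0.35 and 0.57), and the yolk list, at 1.15 and 1.58, is beyond the axis and not drawn.

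Skeletal muscle was among the tissues that varied most. Of 67 tested muscle genes, 59 had the larger SD in aldh2.1-/- clutches (88.1%, against 71.9% of all genes). An SD of at least 0.5 was seen for 25 in aldh2.1-/- and 3 in aldh2.1+/+ clutches (14.4% and 7.66% of all genes). At an unadjusted p under 0.05, 18 had a larger and 1 a smaller spread (13.2% and 1.72% of all genes). The median SD of the list was 0.44 in aldh2.1-/- and 0.18 in aldh2.1+/+ clutches. Its level was 0.42, 0.15, 0.06, −0.59 and −0.05 in aldh2.1-/- clutches 1, 2, 3, 5 and 6, and between −0.09 and 0.15 in aldh2.1+/+ clutches. Clutch 1 had the highest value of 45 and clutch 5 the lowest value of 57 of the 67 genes, against 28.3% and 23.7% of all genes tested. Over clutches the SD of the level was 0.37 in aldh2.1-/- and 0.09 in aldh2.1+/+ clutches, and without aldh2.1-/- clutch 5 it was 0.200. With clutches 1 and 5 both left out it was 0.102 in aldh2.1-/- and 0.0944 in aldh2.1+/+ clutches, so little excess was left.

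MYOM1, encoding myomesin of the sarcomere M-band, is a muscle gene outside this list, named for its large SD in aldh2.1-/- clutches. It had 2373, 792, 1233, 224 and 368 normalized counts in aldh2.1-/- clutches 1, 2, 3, 5 and 6, against 472, 471, 661, 431 and 535 in aldh2.1+/+ clutches. Clutches 1, 2 and 3 lay above the aldh2.1+/+ range and clutches 5 and 6 below it. The SD was 1.35 in aldh2.1-/- and 0.24 in aldh2.1+/+ clutches (adjusted p = 0.228 by limma). The giant sarcomere protein obscurin, from obscnb, had 606, 168, 311, 51.2 and 125 in aldh2.1-/- clutches, against 104 to 154 in aldh2.1+/+ clutches. Again clutch 1 was highest and clutch 5 lowest, and the order of clutches was that of MYOM1.

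Other muscle genes were chosen after their values were seen, for their abundance. The fast myosin heavy chain myhz2 had 44336, 23128, 35009, 15109 and 13516 normalized counts in aldh2.1-/- clutches, against 23164, 24895, 23719.9, 25607 and 21134 in aldh2.1+/+ clutches. The thin-filament crosslinker actn3b, an alpha-actinin of the Z-disc, had 16612, 9559.9, 8328, 3788 and 7289.6 in aldh2.1-/- clutches, against 7524, 6925, 7038, 6435 and 7165 in aldh2.1+/+ clutches. The SD of actn3b was 0.77 in aldh2.1-/- and 0.08 in aldh2.1+/+ clutches. RYR1 ENSDARG00000023797, a calcium release channel of the sarcoplasmic reticulum, had 1606, 699, 1028, 399 and 556 in aldh2.1-/- clutches, against 614, 596, 571, 486 and 645 in aldh2.1+/+ clutches. In these genes too clutch 1 was the highest, and clutch 5 or 6 the lowest.

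Not every muscle gene took this order. The actin gene actc1a had 2494, 2208, 4236, 659 and 1226 normalized counts in aldh2.1-/- clutches, against 4227, 1465, 1960.0, 2719.8 and 3216 in aldh2.1+/+ clutches. Its aldh2.1+/+ clutches were spread too, with an SD of 0.60 beside 1.03 in aldh2.1-/- clutches. The myosin-binding protein gene MYBPC2 ENSDARG00000030157 ran the other way, with 149.7, 309, 385, 553 and 646 in aldh2.1-/- clutches, against 367, 284, 60.1, 337 and 311 in aldh2.1+/+ clutches. ENO3, the muscle enolase of glycolysis, was the steadiest gene of the list, with 8273, 8176, 8417, 7928 and 8904 in aldh2.1-/- clutches, against 11277, 10745, 7805, 7652 and 8090.3 in aldh2.1+/+ clutches. Its SD of 0.06 in aldh2.1-/- clutches was below the 0.27 of aldh2.1+/+ clutches.

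**Figure D4:**
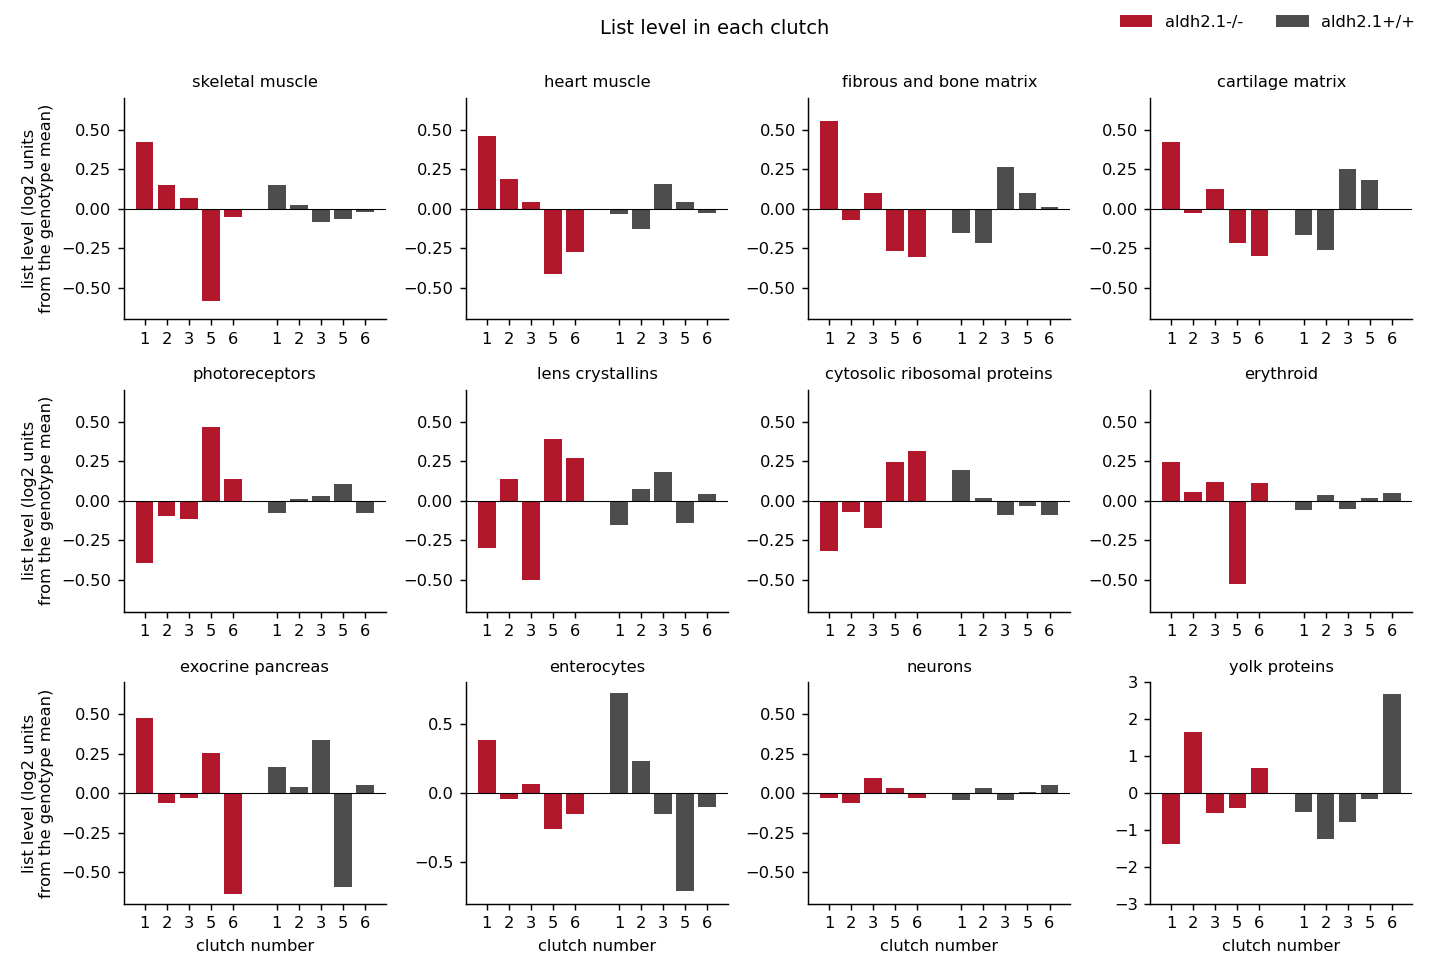
List level of each clutch (vertical axis, log2 units, centred on the mean of its genotype) for 12 gene lists, 1 panel each, with aldh2.1-/- clutches left and aldh2.1+/+ clutches right and clutch numbers on the horizontal axis. Skeletal muscle runs between 0.42 in clutch 1 and −0.59 in clutch 5 and photoreceptors between −0.39 and 0.47 in the same clutches, while their aldh2.1+/+ clutches stay near 0; the vertical axes of enterocytes and yolk proteins are wider than the others.

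Heart muscle genes had a like order. Of 25 tested genes, 19 (76.0%) had the larger SD in aldh2.1-/- clutches, near the 71.9% of all genes. The level was 0.46, 0.18, 0.04, −0.41 and −0.27 in aldh2.1-/- clutches, and between −0.13 and 0.15 in aldh2.1+/+ clutches. Some members are shared with skeletal muscle. MYH6 ENSDARG00000114031, a cardiac myosin heavy chain, had 114, 79.2, 83.3, 33.1 and 18.8 normalized counts in aldh2.1-/- clutches, against 70.21, 64.5, 70.5, 61.8 and 72.2 in aldh2.1+/+ clutches. HAND2, a transcription factor of heart and branchial arches, had 184, 112, 101, 78.9 and 38.7 in aldh2.1-/- clutches, against 89.8, 44.6, 117, 85.1 and 98.5 in aldh2.1+/+ clutches. The first was narrow in aldh2.1+/+ clutches and the second was not, and in both genes clutch 6 was the lowest of the mutants.

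The matrix of skin, fins, bone and basement membranes followed clutch 1. Of 78 tested genes of fibrous and bone matrix, 66 had the larger SD in aldh2.1-/- clutches (84.6%). An SD of at least 0.5 was seen for 32 in aldh2.1-/- and 10 in aldh2.1+/+ clutches (14.4% and 7.66% of all genes). At an unadjusted p under 0.05, 13 had a larger and 0 a smaller spread (13.2% and 1.72% of all genes). The level was 0.55, −0.07, 0.10, −0.27 and −0.31 in aldh2.1-/- clutches 1, 2, 3, 5 and 6, and between −0.22 and 0.26 in aldh2.1+/+ clutches, so aldh2.1+/+ clutches moved as well. Clutch 1 had the highest value of 66 of the 78 genes. Over clutches the SD of the level was 0.35 in aldh2.1-/- and 0.20 in aldh2.1+/+ clutches, and without aldh2.1-/- clutch 1 it was 0.190. With aldh2.1-/- clutches 1 and 5 both left out it was 0.206 in aldh2.1-/- and 0.195 in aldh2.1+/+ clutches.

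COL4A1, a chain of the collagen IV network of basement membranes, had 339.5, 139.5, 225, 76.8 and 76.4 normalized counts in aldh2.1-/- clutches, against 91.9, 112, 132, 82.1 and 122 in aldh2.1+/+ clutches. Clutches 1, 2 and 3 were above the aldh2.1+/+ range and clutches 5 and 6 below it. COL4A1 was named for its large SD in aldh2.1-/- clutches, which favours such values. The short-chain collagen col8a1a belongs to the cartilage list and not to this one. It had 424, 219.7, 244, 69.3 and 107 in aldh2.1-/- clutches, against 138, 111, 105, 129.7 and 140.4 in aldh2.1+/+ clutches. THBS3 ENSDARG00000012060, a thrombospondin of the matrix, had 106, 43.5, 55.9, 13.9 and 36.6 in aldh2.1-/- clutches, against 17.6, 37.7, 35.2, 34.4 and 42.9 in aldh2.1+/+ clutches. The SDs in aldh2.1-/- clutches were 0.94 for COL4A1, 1.02 for col8a1a and 1.00 for THBS3.

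Actinodin and laminin genes widened the group further. The gene and2, for an actinodin of the larval fin fold known from zebrafish, had 2997, 1161, 836, 575 and 538 normalized counts in aldh2.1-/- clutches, against 902, 548, 1764, 1033 and 984 in aldh2.1+/+ clutches, whose ranges overlapped. The gene lama2, for a laminin chain of muscle basement membrane and chosen after its values were seen, had 129, 44.5, 62.5, 3.199 and 8.37 in aldh2.1-/- clutches, against 21.7, 21.8, 17.6, 20.3 and 18.5 in aldh2.1+/+ clutches. Its SD was 1.93 in aldh2.1-/- and 0.12 in aldh2.1+/+ clutches, at low counts. Tenascin, from TNC ENSDARG00000021948, was the steadiest member, with 3519, 2929, 3224, 2942 and 2909 in aldh2.1-/- clutches, against 2878, 2779, 3109, 3172 and 3019.8 in aldh2.1+/+ clutches.

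Cartilage varied in the same order, and how much more than in aldh2.1+/+ clutches depended on scaling. Of 36 tested cartilage genes, 19 (52.8%) had the larger SD in aldh2.1-/- clutches, below the 71.9% of all genes. With a trend on length and level subtracted the share was 69.4%, near the 70.9% of all genes. The SD of the level was 0.287 in aldh2.1-/- and 0.219 in aldh2.1+/+ clutches. It was 0.356 and 0.203 with library size alone, and 0.330 and 0.132 on log2(TPM + 1). The level was 0.42, −0.03, 0.13, −0.22 and −0.30 in aldh2.1-/- clutches, and between −0.26 and 0.25 in aldh2.1+/+ clutches. MATN3, a matrilin of cartilage, had 1019, 629, 990.2, 326 and 493 normalized counts in aldh2.1-/- clutches, against 421, 404, 421, 581 and 515 in aldh2.1+/+ clutches. COL2A1 ENSDARG00000069093, the main cartilage collagen, had 36738, 31443, 30721, 31830.5 and 29648 in aldh2.1-/- clutches, against 25593, 23248, 34652, 34832 and 28344 in aldh2.1+/+ clutches. For this collagen the aldh2.1+/+ clutches were the wider group.

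Photoreceptors ran opposite to muscle. Of 81 tested genes, 78 (96.3%) had the larger SD in aldh2.1-/- clutches. A larger spread at an unadjusted p under 0.05 was seen for 24 and a smaller for 1 (13.2% and 1.72% of all genes). The median SD was 0.36 in aldh2.1-/- and 0.15 in aldh2.1+/+ clutches. The level was −0.39, −0.10, −0.12, 0.47 and 0.14 in aldh2.1-/- clutches 1, 2, 3, 5 and 6, and between −0.08 and 0.11 in aldh2.1+/+ clutches. Clutch 5 had the highest value of 67 genes, and clutch 1 the lowest value of 67 genes. These clutches were the highest for 24.5% and the lowest for 28.5% of all genes tested. Without aldh2.1-/- clutch 5 the SD of the level was 0.222, beside 0.32 with it. With clutches 1 and 5 both left out it was 0.143 in aldh2.1-/- and 0.0789 in aldh2.1+/+ clutches.

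Genes for the light response showed the order in part. The cone phosphodiesterase subunit gene pde6ha had 2590.3, 4175, 6133, 12456 and 12074 normalized counts in aldh2.1-/- clutches, against 9703, 9666, 7109, 8917 and 6674 in aldh2.1+/+ clutches. Clutches 5 and 6 were above every aldh2.1+/+ clutch, and clutches 1, 2 and 3 were below every one of them. Its SD was 0.98 in aldh2.1-/- and 0.25 in aldh2.1+/+ clutches. The red opsin opn1lw1 had 817, 978, 1328, 2478 and 727 in aldh2.1-/- clutches, against 1972, 1475, 1631, 1682 and 1479 in aldh2.1+/+ clutches. For this opsin clutch 5 was the highest of the mutants, but clutch 6 was the lowest.

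A green opsin also departed from the pattern. The gene opn1mw2 had 2972, 944, 2131, 2912 and 2276 normalized counts in aldh2.1-/- clutches, against 3650.1, 3653, 2736, 1679.5 and 2078 in aldh2.1+/+ clutches, and clutch 2 was the low clutch. RGS9 ENSDARG00000045156, which speeds the shut-off of transducin, was the steadiest member. It had 318, 321, 354, 403 and 358 in aldh2.1-/- clutches, against 437, 389.7, 415, 352 and 395 in aldh2.1+/+ clutches. Green opsins and several crystallins are close copies of each other, so an estimate that shares reads among copies could move a count of 1 copy.

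Lens crystallins had their lowest level in clutch 3. Of 55 tested genes, 49 (89.1%) had the larger SD in aldh2.1-/- clutches. With a trend on length and level subtracted, as described below, this share was 76.4%, against 70.9% of all genes. Without that step, 21 had a larger and 0 a smaller spread at an unadjusted p under 0.05 (13.2% and 1.72% of all genes). The level was −0.30, 0.14, −0.50, 0.39 and 0.27 in aldh2.1-/- clutches, and between −0.15 and 0.18 in aldh2.1+/+ clutches. Clutch 3 was lowest for 29 of the 55 genes, against 13.1% of all genes tested. It was also most often the lowest for immediate early genes (28 of 68) and proteasome genes (18 of 42). The gamma-M crystallin crygm2d1 had 1529, 3758, 271, 2903 and 5092 normalized counts in aldh2.1-/- clutches, against 4082, 6119.6, 2321, 2183 and 4239.7 in aldh2.1+/+ clutches. Its copy crygm2d6 had 591, 1411, 163, 1213 and 2058 in aldh2.1-/- clutches, against 1363, 2159, 1018, 758 and 1564 in aldh2.1+/+ clutches. In both, clutch 3 was below every other library of either genotype.

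Lens genes outside the gamma-M family had other orders. BFSP1, the intermediate filament protein filensin of lens fibres, had 1191, 342, 191, 126 and 106 normalized counts in aldh2.1-/- clutches, against 86.7, 81.3, 357, 96.2 and 185 in aldh2.1+/+ clutches, with clutch 1 as the high clutch. CRYBB1, the most abundant crystallin measured and chosen after its values were seen, had 56508, 80571, 70232, 125022 and 88091 in aldh2.1-/- clutches, against 91176, 91061, 89501, 103988 and 91975 in aldh2.1+/+ clutches. Clutch 5 was above every aldh2.1+/+ clutch, and the other mutants were below every one of them.

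**Figure D5:**
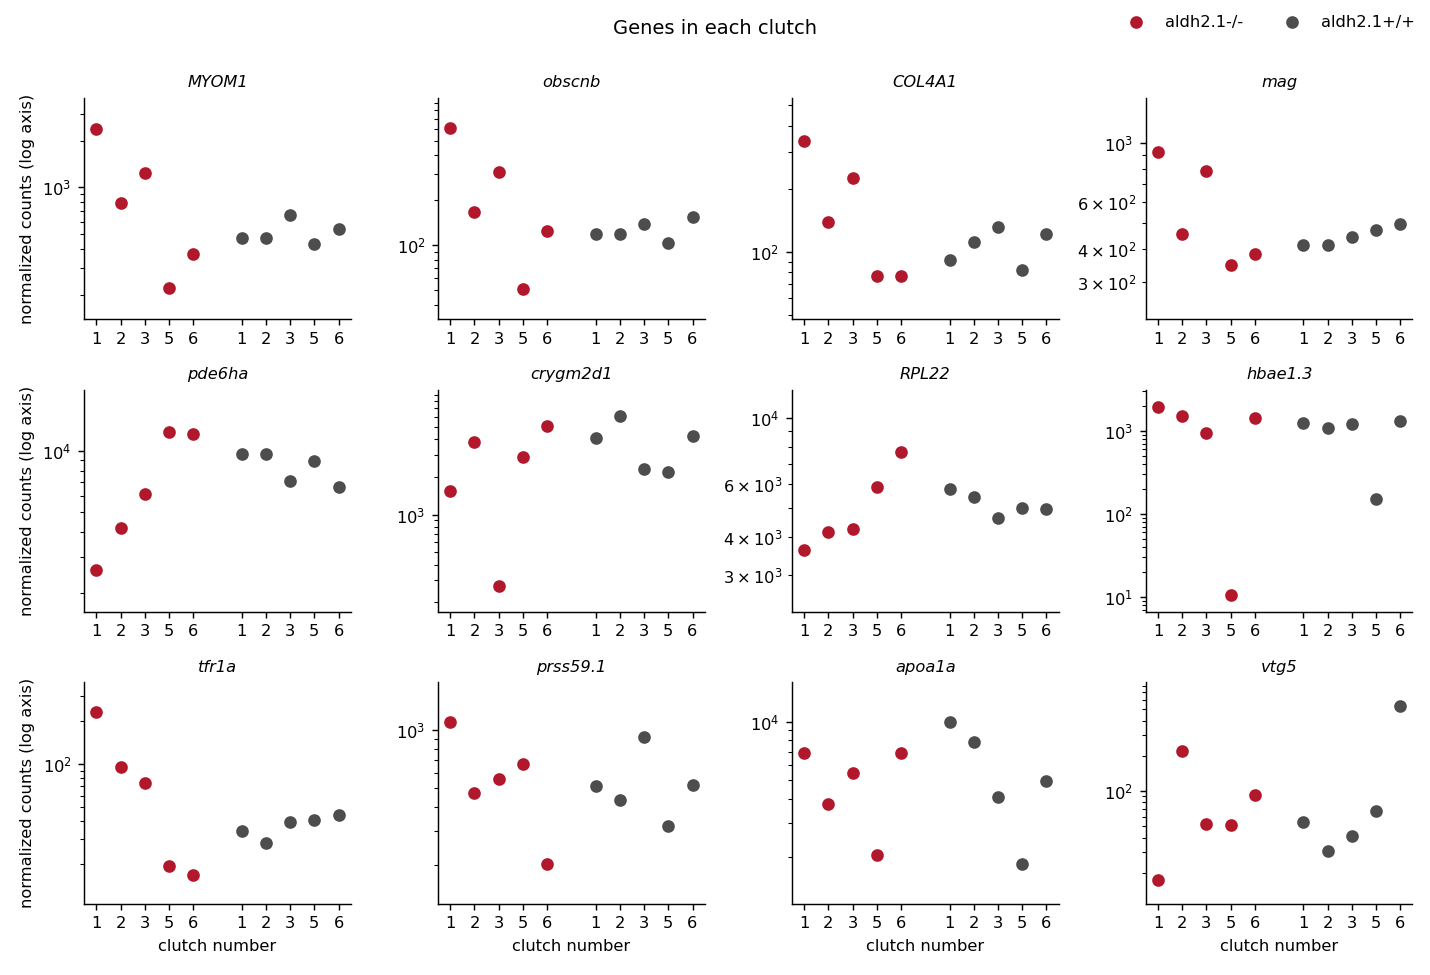
Normalized counts of 12 genes in each clutch (vertical axis, log scale), 1 panel per gene, with aldh2.1-/- clutches left and aldh2.1+/+ clutches right and clutch numbers on the horizontal axis. MYOM1 runs between 2373 in clutch 1 and 224 in clutch 5 and pde6ha between 2590.3 and 12456 in the same clutches, crygm2d1 is lowest in clutch 3 at 271, and hbae1.3 is lowest in clutch 5 of both genotypes, at 10.7 in aldh2.1-/- and 151 in aldh2.1+/+.

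Ribosomal proteins of the cytosol moved as a block of small amplitude. Of 80 tested genes, 77 (96.2%) had the larger SD in aldh2.1-/- clutches, while 0 had an SD of at least 0.5 in either genotype. A larger spread at an unadjusted p under 0.05 was seen for 33 and a smaller for 0 (13.2% and 1.72% of all genes). The level was −0.32, −0.07, −0.17, 0.24 and 0.32 in aldh2.1-/- clutches, and between −0.09 and 0.20 in aldh2.1+/+ clutches. Clutch 1 was lowest for 74 of the 80 genes and clutch 6 highest for 56, against 28.5% and 19.7% of all genes tested. The SD of the level was 0.92 of the root mean square SD of the genes, where 80 independent genes would give 0.11, and this was 0.85 in aldh2.1+/+ clutches.

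RPL22 ENSDARG00000070437, of the large subunit, had 3616, 4158, 4264, 5879 and 7706 normalized counts in aldh2.1-/- clutches, against 5794, 5432, 4621, 5005 and 4975 in aldh2.1+/+ clutches. Clutches 5 and 6 were above the aldh2.1+/+ range, and the other mutants were below it. RPS4Y2, an annotated copy of the small-subunit protein S4, was the steadiest, with 29673, 32135, 31178, 33812 and 32032 in aldh2.1-/- clutches, against 38529, 31871, 32826, 32029 and 31802 in aldh2.1+/+ clutches.

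Transcript length moved with these patterns. With genes divided into 10 bins by effective length, in the bin of shortest genes the median deviation of a clutch from the aldh2.1-/- mean was −0.153, 0.027, −0.070, 0.094 and 0.105 in clutches 1, 2, 3, 5 and 6, and in the bin of longest genes it was 0.040, −0.063, 0.035, 0.003 and −0.021. Short transcripts were thus low in clutch 1 and high in clutches 5 and 6. The genes above the mean in clutches 2, 5 and 6 had a median length percentile of 13.8, and those above it in clutches 1 and 3 one of 54.6. When a smooth trend on length and on level was subtracted from each library, the SD of the level of ribosomal proteins was 0.112 in aldh2.1-/- and 0.0647 in aldh2.1+/+ clutches, beside 0.271 and 0.118 without this step. That of lens crystallins was 0.302 in aldh2.1-/- clutches, beside 0.381. For photoreceptors it was 0.284, beside 0.322, and for skeletal muscle 0.431, beside 0.371. After this step 42 of 55 lens genes (76.4%) had the larger SD in aldh2.1-/- clutches, near the 70.9% of all genes. The share was 81.2% for ribosomal proteins, 93.8% for photoreceptors and 91.0% for skeletal muscle. The median SD of lens genes was 0.323 in aldh2.1-/- and 0.222 in aldh2.1+/+ clutches, beside 0.424 and 0.203. Over all genes the median SD stayed at 0.239 in aldh2.1-/- and 0.165 in aldh2.1+/+ clutches. The part of RNA length or quality in these patterns was not tested beyond this subtraction.

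Red blood cell genes had 1 clutch apart. Of 33 tested erythroid genes, 29 (87.9%) had the larger SD in aldh2.1-/- clutches. At an unadjusted p under 0.05, 11 had a larger and 0 a smaller spread (13.2% and 1.72% of all genes). The level was 0.24, 0.05, 0.12, −0.53 and 0.11 in aldh2.1-/- clutches, and between −0.06 and 0.05 in aldh2.1+/+ clutches. For red cells the SD of the level was 0.30 in aldh2.1-/- and 0.05 in aldh2.1+/+ clutches, and without aldh2.1-/- clutch 5 it was 0.0788. With aldh2.1-/- clutches 1 and 5 both left out it was 0.0355 in aldh2.1-/- and 0.0496 in aldh2.1+/+ clutches, so the wider genotype changed.

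The embryonic alpha globin hbae1.3 had 1920.4, 1489, 931, 10.7 and 1436 normalized counts in aldh2.1-/- clutches, against 1254, 1076, 1209.6, 151 and 1309 in aldh2.1+/+ clutches. Clutch 5 was the low clutch in both genotypes. The related globin hbae3, chosen after its values were seen, had 3432, 3361, 3271, 1499 and 3344 in aldh2.1-/- clutches, against 2127, 2122, 2248, 2122 and 2067 in aldh2.1+/+ clutches, so here clutch 5 stood apart in aldh2.1-/- alone. The transferrin receptor tfr1a, which brings iron into red cell precursors, had 235, 95.0, 73.8, 19.2 and 16.7 in aldh2.1-/- clutches, against 34.1, 27.8, 39.4, 40.5 and 43.9 in aldh2.1+/+ clutches. No aldh2.1-/- clutch lay within the aldh2.1+/+ range of tfr1a, a gene named for its large SD in aldh2.1-/- clutches.

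Other members of the list held another order. The anion exchanger SLC4A1 ENSDARG00000012881 of the red cell membrane had 260.1, 135, 269, 94.9 and 283 normalized counts in aldh2.1-/- clutches, against 153, 120.0, 135, 155 and 172 in aldh2.1+/+ clutches. The water channel AQP1 had 1032, 1082, 990.2, 1111 and 1107 in aldh2.1-/- clutches, against 1002, 1034, 973, 931 and 920.5 in aldh2.1+/+ clutches, and its SD was 0.07 in both.

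Digestive organs did not share the wider spread. Enterocyte genes, which serve uptake of lipid, peptides and vitamins, more often had the smaller SD in aldh2.1-/- clutches, as did yolk and epidermal genes. Of 55 tested enterocyte genes, 12 (21.8%) had the larger SD in aldh2.1-/- clutches. A larger spread at an unadjusted p under 0.05 was seen for 2 and a smaller for 10 (13.2% and 1.72% of all genes). An SD of at least 0.5 was seen for 18 in aldh2.1-/- and 33 in aldh2.1+/+ clutches (14.4% and 7.66% of all genes). The level was 0.39, −0.04, 0.06, −0.26 and −0.15 in aldh2.1-/- clutches, against 0.73, 0.23, −0.15, −0.71 and −0.10 in aldh2.1+/+ clutches of the same numbers. The SD of the level was 0.25 in aldh2.1-/- and 0.53 in aldh2.1+/+ clutches, and without aldh2.1-/- clutch 1 it was 0.138.

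The intestinal fatty acid binding protein FABP2, chosen after its values were seen, had 2620.4, 2479.5, 2707, 2346 and 2773 normalized counts in aldh2.1-/- clutches, against 7192, 4897, 2639.9, 2015 and 3121 in aldh2.1+/+ clutches. The aldh2.1-/- clutches were almost level and the aldh2.1+/+ clutches were not. The apolipoprotein apoa1a was wide in both, with 6928, 3749, 5461, 2047 and 6925 in aldh2.1-/- clutches, against 9937, 7843, 4083, 1849 and 4925 in aldh2.1+/+ clutches. DGAT2, of triglyceride synthesis, had 136, 48.5, 69.1, 43.7 and 34.5 in aldh2.1-/- clutches, against 69.2, 52.6, 36.3, 27.4 and 45.8 in aldh2.1+/+ clutches. Clutch 5 of both genotypes had the lowest apoa1a.

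Enzymes of the exocrine pancreas and plasma proteins of the liver were wide in both genotypes. Of 31 tested pancreatic genes 18 (58.1%) and of 61 tested liver genes 34 (55.7%) had the larger SD in aldh2.1-/- clutches. The level of the pancreatic list was 0.47, −0.06, −0.03, 0.26 and −0.64 in aldh2.1-/- clutches, against 0.17, 0.04, 0.34, −0.59 and 0.05 in aldh2.1+/+ clutches, and its SD was 0.42 in aldh2.1-/- and 0.35 in aldh2.1+/+ clutches. Clutch 6 was lowest for 23 of the 31 pancreatic genes, against 19.9% of all genes tested, and without it the SD of the level was 0.255. The trypsin gene prss59.1 had 1108, 473, 560.4, 673 and 202 normalized counts in aldh2.1-/- clutches, against 516, 437, 919, 321 and 523 in aldh2.1+/+ clutches. The amylase amy2al1 varied less than this trypsin gene, with 94.9, 83.1, 104, 116 and 74.3 in aldh2.1-/- clutches, against 82.6, 90.2, 107, 96.2 and 81.9 in aldh2.1+/+ clutches.

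In the liver list, clutch 1 had the highest value of 44 of the 61 genes, and without it the SD of the level was 0.0995, beside 0.28 with it and 0.29 in aldh2.1+/+ clutches. Transferrin, from tfa, had 6210.2, 4270.4, 2133, 2160.3 and 2637 normalized counts in aldh2.1-/- clutches, against 3088, 3938, 3681, 2202 and 2272 in aldh2.1+/+ clutches. The complement gene c3a.1 had 597, 235, 291, 198 and 188 in aldh2.1-/- clutches, against 263, 261, 292, 202 and 239.9 in aldh2.1+/+ clutches. The apolipoprotein apoa2 went the other way and was steadier in aldh2.1-/- clutches, at 8145, 6943, 7405, 8215 and 8242, against 12683, 10602, 8847, 6019 and 8020.1 in aldh2.1+/+ clutches.

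Yolk proteins had the widest level of all lists in either genotype. The 7 tested yolk genes had a median SD of 1.15 in aldh2.1-/- and 1.58 in aldh2.1+/+ clutches, and 0 of 7 had the larger SD in aldh2.1-/-. The level was −1.39, 1.66, −0.55, −0.40 and 0.68 in aldh2.1-/- clutches, against −0.51, −1.25, −0.78, −0.15 and 2.69 in aldh2.1+/+ clutches. The vitellogenin vtg5 had 17.3, 222, 52.1, 51.2 and 92.1 normalized counts in aldh2.1-/- clutches, against 54.7, 30.7, 41.5, 66.9 and 531 in aldh2.1+/+ clutches. Clutch 2 was the high clutch in aldh2.1-/- and clutch 6 in aldh2.1+/+. The genes of this list are close copies, so they are hardly separate measurements. The order of clutches for yolk was not that of muscle or retina.

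Nervous tissue showed the third kind of behaviour, a wider spread per gene with little movement as a whole. Of 84 tested neuronal genes, 74 (88.1%) had the larger SD in aldh2.1-/- clutches. At an unadjusted p under 0.05, 19 had a larger and 0 a smaller spread (13.2% and 1.72% of all genes). The SD of the level, however, was 0.06 in aldh2.1-/- and 0.04 in aldh2.1+/+ clutches. The glutamate transporter SLC1A2 ENSDARG00000102453, from the glia and myelin list described next, was steady. It had 25148, 28269, 27768, 27268 and 27196 normalized counts in aldh2.1-/- clutches, against 26068, 26623, 25758, 25042 and 26746 in aldh2.1+/+ clutches. The synaptic vesicle calcium sensor SYT2 had 417, 162, 359, 126 and 219.8 in aldh2.1-/- clutches, against 172, 229, 177, 168 and 254 in aldh2.1+/+ clutches. The vesicular glutamate transporter SLC17A6 ENSDARG00000001127 had 482, 335, 451, 218 and 262 in aldh2.1-/- clutches, against 303, 357, 271, 314 and 369.6 in aldh2.1+/+ clutches. Over the 84 neuronal genes, clutch 1 was lowest for 42 and highest for 17, against 28.5% and 28.3% of all genes tested. Clutch 5 was highest for 31 of them and lowest for 15. In SYT2 and SLC17A6, by contrast, clutches 1 and 3 were the high clutches.

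Some genes of glia and myelin took this last order, but the list as a whole did not. Of 41 tested genes of glia and myelin, 32 (78.0%) had the larger SD in aldh2.1-/- clutches, near the 71.9% of all genes. A larger spread at an unadjusted p under 0.05 was seen for 9 and a smaller for 0 (13.2% and 1.72% of all genes). The level was 0.05, −0.08, 0.02, 0.01 and 0.00 in aldh2.1-/- clutches, and clutch 1 was lowest for 14 genes and highest for 9. The members named next are those of largest SD. Myelin-associated glycoprotein, from mag, had 921, 453, 787, 349 and 384 normalized counts in aldh2.1-/- clutches, against 414, 415, 444, 471 and 498 in aldh2.1+/+ clutches. CLDN19, a claudin of tight junctions, had 366, 178, 330.4, 134 and 127 in aldh2.1-/- clutches, against 146, 129.9, 157, 132 and 154 in aldh2.1+/+ clutches. SLC1A3 ENSDARG00000043148, a glutamate transporter of glia, had 665, 642, 666, 302 and 399 in aldh2.1-/- clutches, against 391, 495, 397, 385 and 514 in aldh2.1+/+ clutches. Clutches 1 and 3 lay above the aldh2.1+/+ range for all 3 genes. The SD of the level of the list was 0.05 in aldh2.1-/- and 0.08 in aldh2.1+/+ clutches. With library size alone it was 0.105 in aldh2.1-/- and 0.0525 in aldh2.1+/+ clutches, so the wider genotype changed with scaling.

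The lists of cell processes given here moved less than muscle or retina, but several moved more than in aldh2.1+/+ clutches. For heat shock and chaperones the SD of the level was 0.12 in aldh2.1-/- and 0.04 in aldh2.1+/+ clutches. It was 0.11 and 0.06 for replication and mitosis, 0.09 and 0.05 for the proteasome and 0.10 and 0.08 for the respiratory chain. It was smaller in aldh2.1-/- clutches for immediate early genes, at 0.12 and 0.18, and for the Nrf2 list below. Replication and mitosis genes had their highest value in clutch 2 for 70 of 121 genes, against 14.4% of all genes tested, with levels of −0.08, 0.17, −0.08, −0.04 and 0.03 in aldh2.1-/- clutches and between −0.08 and 0.08 in aldh2.1+/+ clutches. Clutch 2 was also highest for 50 of 100 respiratory chain genes, 29 of 42 proteasome genes and 34 of 91 heat shock and chaperone genes. In the replication list the ribonucleotide reductase subunit RRM2 ENSDARG00000078069 had 957, 1898, 1124, 1818 and 1558 normalized counts in aldh2.1-/- clutches, against 1368, 1140.4, 1278, 1477 and 1223 in aldh2.1+/+ clutches. The chaperone hsp90aa1.1, known for its role in zebrafish muscle, had 853, 724, 632, 232 and 448 in aldh2.1-/- clutches, against 513, 402, 454, 513 and 372 in aldh2.1+/+ clutches. Clutch 5 was lowest, as for the muscle list. In the list of Nrf2 and aryl hydrocarbon receptor targets, which answer to reactive compounds, 31 of 63 genes (49.2%) had the larger SD in aldh2.1-/- clutches. At an unadjusted p under 0.05, 3 had a larger and 4 a smaller spread (13.2% and 1.72% of all genes). The SD of the level of this list was 0.07 in aldh2.1-/- and 0.11 in aldh2.1+/+ clutches. With library size alone this SD was 0.133 in aldh2.1-/- and 0.0964 in aldh2.1+/+ clutches. On log2(TPM + 1) it was 0.151 and 0.110, so the wider genotype depended on scaling.

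Endothelium, the tissue marked in this line, moved less than muscle or retina. Of 54 tested genes, 38 (70.4%) had the larger SD in aldh2.1-/- clutches, close to the share over all genes, and the level was 0.17, 0.04, −0.01, −0.07 and −0.13 in aldh2.1-/- clutches, and between −0.05 and 0.07 in aldh2.1+/+ clutches. The growth factor VEGFA ENSDARG00000034700 had 277, 289.9, 281, 267 and 255 normalized counts in aldh2.1-/- clutches, against 293, 306, 243, 252 and 234 in aldh2.1+/+ clutches. CLDN5 ENSDARG00000043716, a claudin of endothelial barriers, had 199, 123, 162, 101 and 98.4 in aldh2.1-/- clutches, against 100.2, 138, 143, 126 and 167 in aldh2.1+/+ clutches. The claudin was highest in clutch 1 and VEGFA in clutch 2, and both were lowest in clutch 6.

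Some genes were near absent from single clutches. A gene was counted when it had at most 3 counts in 1 clutch and at least 50 normalized counts in another of the same genotype, which held for 35 genes in aldh2.1-/- and 24 in aldh2.1+/+ clutches, with 12 genes in both lists, that is, 34.3% of the aldh2.1-/- list and 50.0% of the aldh2.1+/+ list. The gene si:dkeyp-94g1.1 had 0, 129.6, 120.2, 146 and 153 normalized counts in aldh2.1-/- clutches, against 147, 104, 131, 139.8 and 150.2 in aldh2.1+/+ clutches. The gene si:dkey-57n24.9 had 182, 151, 196, 23.5 and 0 in aldh2.1-/- clutches, against 268, 166, 175, 166 and 156 in aldh2.1+/+ clutches. The cilium gene cfap70, which did not meet this rule, had 308, 11.9, 311, 14.9 and 391 in aldh2.1-/- clutches, against 347, 10.9, 296, 12.2 and 383 in aldh2.1+/+ clutches. Clutches 2 and 5 were low in both genotypes there.

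A copy pair changed places between clutches. PAOX ENSDARG00000003380, a polyamine oxidase, had 37.4, 269, 57.7, 44.8 and 48.1 normalized counts in aldh2.1-/- clutches, against 47.5, 307, 276, 40.5 and 42.9 in aldh2.1+/+ clutches. PAOX ENSDARG00000109596 had 222, 10.9, 255, 252 and 241 in aldh2.1-/- clutches, against 290.2, 22.8, 0, 226 and 215 in aldh2.1+/+ clutches. Where the first was high the second was low, and few of these counts were whole numbers, so reads were shared between the copies by estimate.

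The steadiest genes set the floor of the spread. Among genes with at least 1000 normalized counts, MIDN, a nuclear protein linked to proteasomal degradation, had 3756, 3737, 3697, 3683 and 3769 in aldh2.1-/- clutches, against 3033, 3158, 3169, 3675 and 3580.5 in aldh2.1+/+ clutches. RGMB, a bone morphogenetic protein co-receptor, had 1059, 1039, 1077, 1080.2 and 1058 in aldh2.1-/- clutches, against 1093, 1137, 1057, 1052 and 1078 in aldh2.1+/+ clutches. ARNT2, a transcription factor partner used as a reference gene by the study, had 2507, 2534, 2563, 2812 and 2707 in aldh2.1-/- clutches, against 2509, 2834, 2681, 2549 and 2967 in aldh2.1+/+ clutches. In ARNT2 the ranges of the genotypes overlapped, with SDs of 0.07 in aldh2.1-/- and 0.10 in aldh2.1+/+ clutches.

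The direction of a list in each aldh2.1-/- clutch was compared across scalings. With library size alone, DESeq2 size factors, log2(TPM + 1) or the subtracted trend, no sign of a level changed in any aldh2.1-/- clutch for skeletal muscle, heart muscle, photoreceptors, lens, ribosomal proteins, fibrous and bone matrix, cartilage, enterocytes and yolk. Levels near 0 did change sign under some of these, as in clutch 3 for pancreas and liver and clutch 2 for erythroid genes. In the lists of cell processes some larger levels changed sign too. The respiratory chain level of clutch 1 was −0.096, but 0.046 on log2(TPM + 1) and 0.071 with the trend subtracted. The order of clutches in such lists therefore depended on scaling. Shifts of the median were taken over the 16917 genes with a mean of at least 50 normalized counts. The log2(TPM + 1) scaling shifted this median by 0.12, −0.04, 0.10, −0.13 and −0.05 in aldh2.1-/- clutches 1, 2, 3, 5 and 6, and the other scalings shifted it by less than 0.1.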

How the data were processed

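Whole-larva RNA was sequenced by the study on the BGISEQ-500 platform after extraction with an RNeasy kit, 1 library per clutch of 50 larvae. The authors deposited expected counts per gene, which are estimates and were not normalized. In a separate table per library they gave TPM, in which the authors corrected counts for transcript length and set every library to an equal sum. The tools in the submitters' processing notes were Trim Galore 0.6.4 and kallisto 0.4.6 with genome build GRCz11, and the annotation release is not given in the sources used here. Between 57.4% and 58.8% of the gene entries of a library were whole numbers, with entries at 0 counted among them. The counts of many genes therefore held reads shared by estimate. Symbols were found for 29201 of 32520 genes. They mix human and zebrafish names, so an identifier is given where copies share a symbol. The name table calls aldh2.1 ALDH2.

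Expected counts were rounded and scaled with TMM factors (edgeR 4.0.16, R 4.3.3; factors 0.948 to 1.08), and genes were kept by filterByExpr with genotype as group. Log2 CPM used a prior count of 2. The SD was taken within each genotype. Spread per gene was tested with limma 3.58.1 (two-sided, robust) on absolute deviations from the genotype mean of all 10 libraries, with Benjamini-Hochberg adjustment. Tested on simulated data, this fit made few or no adjusted calls for known changes in spread, so the absence of a call says little about a gene, and its unadjusted p-values ran somewhat small where nothing changed, so unadjusted counts are read against the share over all genes. For the typical deviation an exact permutation test (two-sided) was used. The samples are separate clutches by their labels. P-values measure the spread between these pools. Libraries of equal clutch number were not treated as pairs, since their deviations were not alike across genes, and a shared origin was not tested.

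Members, lists and tests were chosen with earlier results of these data known. Named genes were aldh2.1 and aldh2.2, genes of largest SD in either genotype, genes with the largest deviation of a clutch, the 3 members of largest and the 1 of smallest SD in each list (mean of at least 50 normalized counts), the genes of smallest p, the steadiest genes with at least 1000 normalized counts and the reference genes arnt2 and b2m. Not all of them are described, some genes are not reported here, and genes outside the rule are given as chosen after their values were seen.

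Alternatives were library size alone, DESeq2 1.42.0 size factors and its variance stabilizing transformation, other filters, a prior count of 0.5, log2(TPM + 1) and log2(TPM + 0.1), deviations about the median, squared deviations, a replicate block and leaving out each library in turn. Subtracting a trend on effective length and level, and leaving out clutches 1 and 5 together, were chosen after seeing the data. Figures were drawn with Python 3.11.15 and matplotlib 3.10.9.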

Additional observations from a re-analysis of the deposited data

Results flagged for a closer look

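Of 230 sets of 5 clutch values examined, 18 held a clutch far from the other 4, measured as the gap to the nearest clutch over the whole range, and chance gives this for about 1 in 20 sets (5%). Some of these genes were named because a single clutch deviated from the others or because their SD was large, so the count cannot be read against that share. There were 7 such sets among aldh2.1-/- and 11 among aldh2.1+/+ clutches. In aldh2.1-/-, the erythroid level was −0.53 in clutch 5, while the others lay between 0.05 and 0.24. The level of glucocorticoid and fasting genes was 0.15 in clutch 1, while the others lay between −0.05 and −0.03. The globin hbae1.3 had 10.7 normalized counts in clutch 5 and 931 to 1920.4 in the others. The gene si:dkeyp-94g1.1 was at 0 in clutch 1 and at 120.2 to 153 in the others.

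Clutch 2 of aldh2.1-/- stood apart for 3 more sets. PAOX ENSDARG00000003380 had 269 normalized counts in it and 37.4 to 57.7 in the others, and its copy ENSDARG00000109596 had 10.9 in it and 222 to 255 in the others. KCNK5 ENSDARG00000023587, a potassium channel, had 31.7 in it and 258 to 417 in the others.

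In aldh2.1+/+ clutches the yolk level was 2.69 in clutch 6, with vtg5 at 531 normalized counts. Clutch 1 stood apart for THBS3 at 17.6, RPS4Y2 at 38529, ELOVL2 (a fatty acid elongase) at 322, si:dkey-57n24.9 at 268 and KCNK5 at 165. Clutch 2 stood apart for MARK2 at 1616 and for insulin, from ins, at 98.2. Clutch 3 stood apart for MYBPC2 at 60.1 and clutch 5 for hbae1.3 at 151.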

How the results depend on the processing

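No main value or count changed direction under the alternatives run, but some lists did. The genotype with the larger level SD changed for 5 of 30 lists with library size alone and 7 on log2(TPM + 1). It changed for 0 lists with DESeq2 size factors and 1 with the trend subtracted. Liver, glia and myelin, interferon, circadian clock and Nrf2 lists changed with library size alone and on log2(TPM + 1). Epidermis and respiratory chain lists changed on log2(TPM + 1) only. The test of spread gave 0 adjusted calls under 10 alternatives, 437 with no filter beyond 1 count and 96 on squared deviations. It gave 0 to 695 calls when 1 library was left out, and the cause was not tested. About the median the unadjusted counts were 530 larger and 46 smaller, and with no filter 1398 were smaller. Deviations of libraries of equal clutch number were not alike in every pair (r across genes −0.202 to 0.162), and a shared origin was not tested. A replicate block gave 0 calls, with 2558 genes of larger and 403 of smaller spread at an unadjusted p under 0.05. The difference in typical deviation was 0.0580 to 0.0945 with 1 library left out (exact permutation p = 0.0556 without aldh2.1+/+ clutch 6) and 0.0508 on log2(TPM + 1) (exact permutation p = 0.0635). The median SD was 0.148 in aldh2.1-/- and 0.103 in aldh2.1+/+ clutches on the variance stabilized scale, and 0.220 to 0.255 in aldh2.1-/- with 1 library left out. Genes with an SD of at least 0.5 numbered 6439 in aldh2.1-/- and 4810 in aldh2.1+/+ clutches with no filter, 1334 and 489 at a mean of at least 50, 1484 and 513 on log2(TPM + 1), and 303 and 154 on the variance stabilized scale. The leading component held 47.8% to 69.1% with 1 aldh2.1-/- clutch left out. The near absent genes numbered 192 in aldh2.1-/- and 131 in aldh2.1+/+ clutches from 20 normalized counts, and 21 and 15 at 0 counts. The lists with the larger level SD in aldh2.1-/- numbered 18 to 24 of 30 with 1 library left out. Adjusted p for aldh2.1 ranged from 0.268 to 0.483, and that of the genes named for their smallest p from 0.00528 to 0.928. With 5 clutches per genotype, an SD of 1 gene is itself uncertain, and clutches cannot be told apart from litters, tanks or days.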

Other observations

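Islet genes and pigment genes were also measured. Of 24 tested islet genes 20 had the larger SD in aldh2.1-/- clutches, with a level SD of 0.07 in aldh2.1-/- and 0.05 in aldh2.1+/+ clutches. The zinc transporter SLC30A8 of insulin granules had 389, 347, 348, 186 and 188 normalized counts in aldh2.1-/- clutches 1, 2, 3, 5 and 6, against 224, 243, 258, 302 and 209.6 in aldh2.1+/+ clutches. Insulin, from ins, had 322, 266, 168, 238 and 128 in aldh2.1-/- clutches, against 187, 98.2, 189.7, 225 and 219 in aldh2.1+/+ clutches, and the hormone precursor gcga had 116, 133, 127, 131 and 119.3 in aldh2.1-/- clutches, against 119.8, 141, 243, 147 and 110.2 in aldh2.1+/+ clutches. Among pigment genes, TYR, the tyrosinase of melanin synthesis, had 1144, 875, 810.3, 643 and 421 in aldh2.1-/- clutches, against 452, 550.4, 907, 661 and 609 in aldh2.1+/+ clutches. The order of TYR from clutch 1 down to clutch 6 was also that of the cardiac gene HAND2 in the same larvae.

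Skin was wide in both genotypes. Of 69 tested epidermal genes 30 (43.5%) had the larger SD in aldh2.1-/- clutches, and the level SD was 0.19 in aldh2.1-/- and 0.29 in aldh2.1+/+ clutches. On log2(TPM + 1) the level SD was 0.251 in aldh2.1-/- and 0.179 in aldh2.1+/+ clutches. Desmoplakin, from DSP ENSDARG00000076673, had 379.7, 139, 321, 101 and 143 normalized counts in aldh2.1-/- clutches, against 123, 136, 158, 184 and 167 in aldh2.1+/+ clutches. The gene scpp5, of mineralizing tissue in fish, had 309, 183, 106, 165 and 22.0 in aldh2.1-/- clutches, against 123, 52.6, 424, 161 and 126 in aldh2.1+/+ clutches. PDK4 ENSDARG00000054848, a kinase that limits pyruvate oxidation in fasting, had 334, 207, 257, 106 and 114 in aldh2.1-/- clutches, against 139, 171, 188, 199 and 203 in aldh2.1+/+ clutches. Among clock genes, CAMK1G ENSDARG00000008788, a calcium-dependent kinase, had 914, 969.6, 1209, 2006 and 1613 in aldh2.1-/- clutches, against 1684, 1905, 1949.6, 1533 and 1458 in aldh2.1+/+ clutches, and nfil3-6 had 365, 281, 431, 810.4 and 578 in aldh2.1-/- clutches, against 360.4, 385, 391, 506 and 456 in aldh2.1+/+ clutches. Both were highest in clutches 5 and 6 of the mutants.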
